A study of Mus musculus with 14 samples.

Results

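Non-neuroendocrine (Non-NE) cells of mouse small cell lung cancer were compared with neuroendocrine (NE) cells by RNA sequencing, using the 3 libraries of each kind, 6 of the 14 libraries of the series. The 6 libraries were taken by their labels, and every gene of the table with enough counts in them entered the fit. All 6 come from cell cultures of lung tumours in mice of mixed strain, grown in HITES medium, a defined medium for lung cancer cells. The mice carried CGRPCreER/+, a tamoxifen-inducible Cre recombinase under the control of Calca, which encodes calcitonin and CGRP and is active in pulmonary neuroendocrine cells. They also carried floxed alleles that include Rbf/f and P53f/f, of Rb1 and Trp53, and received TM, read here as tamoxifen, after 2 months. One label field names P53 for all libraries, whereas the genotype field counts its number upward from library to library. No treatment separates the groups, which are labelled by cell state and share these alleles. Other differences between the cultures were not tested. The Y-linked transcripts Eif2s3y and Ddx3y, for example, were above 1 CPM in NE replicate 3 alone. The labels do not say whether libraries of a group came from separate tumours, clones or cultures, so p-values measure the spread between these libraries only.

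Small cell lung cancer arises mostly from neuroendocrine cells, which store peptides in secretory granules, fire action potentials and use proneural transcription factors. Cell cultures of such tumours often contain a second, adherent type that has lost these features. Membrane receptors and channels set which signals a cell receives, transcription factors set which genes it reads, and metabolic enzymes set which nutrients it uses. The results are given in that order.

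Levels are CPM, counts per 1000000 after scaling by TMM, a factor per library that balances the bulk of genes. Library totals were 6730816 to 10539136 counts, and mitochondrial transcripts took 2.84% to 5.18% of them. NE replicate 2 held no more counts than a library of NE cells from the YAP5SA time course (day 0, replicate 1) in any gene, and 85.7% of its total; that library is not used here. Of 12966 genes with enough counts, 5554 (42.8%) passed an adjusted p of 0.05 in edgeR's quasi-likelihood test with Benjamini-Hochberg adjustment, here "called". Higher in Non-NE were 2594 (20% of those tested) and lower 2960 (22.8%), and 3048 of the calls were at least 4-fold. Under every alternative run that gave an adjusted p, 3725 (28.7%) kept their call and direction. The median log2 difference over all tested genes was -0.02. Scaling by library totals alone moved that median to -0.27 and the split to 1929 higher and 3756 lower, so small differences are relative to it. Libraries of the groups did not overlap in 7603 genes (58.6%). In bulk RNA, fewer cells of a type and less RNA per cell cannot be told apart.

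Of the engineered genes, Rb1 (mm10 chromosome 14 from 73183673 to 73325822 on the minus strand) stood at 43.5, 79.2 and 49.4 CPM in the NE libraries and 6.13, 6.12 and 4.26 CPM in the Non-NE libraries. Every Non-NE library was below every NE library (10.4-fold lower, log2 difference -3.38, SE 0.34, adjusted p = 0.000433). Trp53 was at 18.7, 12.2 and 16.2 CPM in NE and 17.6, 17.1 and 12.7 CPM in Non-NE, with overlapping groups (log2 difference 0.01, SE 0.30, adjusted p = 0.986). Gene totals do not show which exons were read, so they do not check the deletions. Calca had 0 counts in all 6 libraries. Of the markers read to check the labels, all 5 tested NE markers were lower in Non-NE. Of 6 tested Non-NE markers 4 were higher, Rest among them, and 2 were not called, Myc among them. Syp, an NE marker that encodes the vesicle protein synaptophysin, was at 129, 127 and 111 CPM in NE and 0.472, 0.118 and 0.311 CPM in Non-NE.

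The largest differences in absolute level were those of matrix and cytoskeletal genes on one side and of vesicle and glycolytic genes on the other. Sparc, a matrix glycoprotein, was below 2 CPM in each NE library and at 4471, 7323 and 11371 CPM in Non-NE (12785-fold higher). Lox, a collagen crosslinking oxidase, reached 1266, 4876 and 4160.3 CPM in Non-NE against 0.428 ± 0.423 CPM in NE (SD, n = 3). Lgals1, a secreted galectin, was at 3137, 3692 and 4473 CPM against 1.02 ± 0.409 CPM. The cytoskeletal genes Tpm1 and Actb differed by degree, not by presence: Tpm1 was 18.04-fold higher and Actb 5.34-fold higher. On the NE side Nnat, an imprinted membrane proteolipid, was at 1703, 1560.2 and 1485 CPM against 2.55 ± 1.07 CPM in Non-NE. Syt7, a calcium sensor of vesicle fusion, was at 1232, 1165 and 1101 CPM in NE and 183-fold lower in Non-NE, and the complexin Cplx2 was 61.2-fold lower. Gpi1, a glycolytic isomerase, and Scd2, a fatty acid desaturase, were 6.46-fold lower and 2.41-fold lower.

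All-or-none expression was common on both sides. At least 10 CPM in each NE library and under 1 CPM in each Non-NE library was found for 458 genes, and the mirror pattern for 258 genes. In contrast, 7491 genes held at least 10 CPM in all 6 libraries. The plot of calls per gene list shows how unevenly these differences fell over gene classes. A gene near 0 in one group entered the test only if it was high in the other, so counts over tested members describe the lists and are no test of them.

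**Figure D1:**
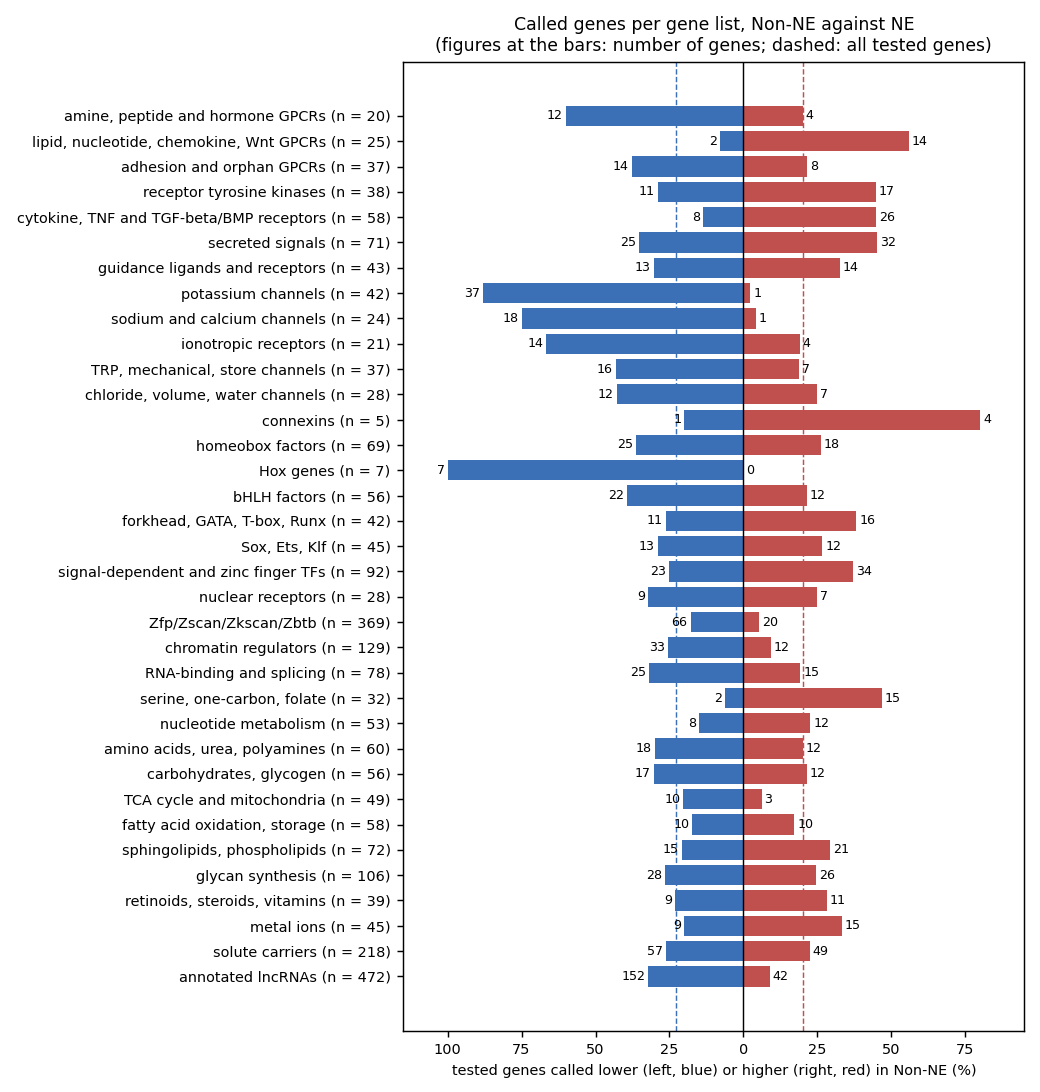
Percentage of tested genes of each list called lower (blue, left) or higher (red, right) in Non-NE, with the number of genes at each bar and dashed lines at 20% higher and 22.8% lower for all 12966 tested genes. Potassium channels lie far to the left (37 of 42 lower) and cytokine receptors to the right (26 of 58 higher), while the TCA cycle list (3 higher and 10 lower of 49) stays short on both sides.

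G protein-coupled receptors (GPCRs) relay outside signals through heterotrimeric G proteins, and their classes divided between the states. Of 112 listed receptors for amines, peptides and hormones, 20 were tested, with 4 higher and 12 lower in Non-NE (median log2 difference -4.54, or -4.35 with genes absent from a group at their bound). The dopamine receptor Drd2 was at 33.2, 83.9 and 62.3 CPM in the NE libraries and had 0 counts in Non-NE (at least 478-fold lower, adjusted p = 0.000597), where a group at 0 allows up to 3 counts, 0.123 CPM in Non-NE and 0.103 CPM in NE. Hrh3, a histamine autoreceptor, was at 51.9, 55.7 and 54.5 CPM and Casr, the calcium-sensing receptor, at 6.11, 21.2 and 3.60 CPM, both with 0 counts in Non-NE. Gipr, the receptor of the gut hormone GIP, was 528-fold lower (95% counting interval 181 to 2564). Also lower were the muscarinic receptors Chrm3 and Chrm4, the somatostatin receptors Sstr2 and Sstr5, Vipr1, Adra2a and Hcrtr1. The glutamate receptor Grm4 was lower as well, but not called without NE replicate 1, NE replicate 2 or Non-NE replicate 2 (edgeR adjusted p = 0.0514, 0.0689 and 0.0737). Higher members with 0 counts in NE included Pth1r, the parathyroid hormone receptor (6.13, 47.8 and 159 CPM), and the adrenergic receptors Adra1d (22.2, 10.6 and 64.4 CPM) and Adra1b. Without Non-NE replicate 3 the higher members numbered 7. Gabbr1, a GABA-B receptor subunit, was at 61.1 ± 15.3 and 41.5 ± 12.3 CPM and was not called (log2 difference -0.56, SE 0.31, adjusted p = 0.185).

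Receptors for lipids, nucleotides, proteases, chemokines and Wnt or Hedgehog signals went mostly the other way, with 14 of 25 tested members higher and 2 lower (4 lower without NE replicate 3 or Non-NE replicate 1). F2r, the thrombin receptor, had 0 counts in NE and 237, 349.9 and 214 CPM in Non-NE (at least 2587-fold higher, adjusted p = 0.000103). Lpar1 and Lpar4, which bind lysophosphatidic acid, also had 0 counts in NE and reached 36.3, 57.8 and 83.05 CPM and 35.7, 1.88 and 14.8 CPM. Smo, the Hedgehog signal transducer, was at 184, 188 and 180.4 CPM in Non-NE and had a single count in NE (5347-fold higher (95% counting interval 959 to 211255)). Among the Frizzled receptors of Wnt ligands, Fzd1, Fzd2, Fzd6, Fzd7 and Fzd8 were higher, and the other 4 tested members were not called. Fzd2 was at 117, 127 and 128 CPM and Fzd6, also present in NE at 27.02, 31.4 and 47.4 CPM, was 6.79-fold higher. Ffar4, a receptor for long-chain fatty acids, was the main lower member, at 199, 161 and 116 CPM in NE and 0, 0.824 and 0.208 CPM in Non-NE. The prostaglandin receptor Ptger1 was not called (34.8 ± 4.28 and 32.3 ± 3.55 CPM, log2 difference -0.11, SE 0.22, adjusted p = 0.707).

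Adhesion and orphan GPCRs were split, 8 higher (5 without Non-NE replicate 3) and 14 lower of 37. Celsr3, an atypical cadherin of planar polarity, was at 116, 94.04 and 170.3 CPM in NE and 584-fold lower in Non-NE. Bai1, which binds phosphatidylserine, was at 82.1, 61.7 and 38.1 CPM and 1503-fold lower (95% counting interval 269 to 59410.5). Higher members included the zinc-sensing Gpr39 (13.1, 10.2 and 18.1 CPM, 0 counts in NE) and Gprc5a, which was 30.3-fold higher.

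Receptor tyrosine kinases changed in 28 of 38 tested genes, 17 higher and 11 lower. Axl, the GAS6 receptor, was at 484, 754 and 590.4 CPM in Non-NE and 9003-fold higher (95% counting interval 2492 to 74347). Fgfr1 was at 16.7, 176 and 167 CPM and 798-fold higher, while its paralogue Fgfr2 fell from 68.2, 89.4 and 188 CPM to 29.6, 17.4 and 7.99 CPM (6.31-fold lower). The ephrin receptors Epha2, Epha4, Epha7 and Ephb4 were higher, with Epha2 at 102, 447 and 271 CPM, whereas Epha8 was lower. Kit, the stem cell factor receptor, was at 84.8, 90.1 and 52.3 CPM in NE and had 0 counts in Non-NE (at least 619-fold lower). Erbb3, a receptor for neuregulins, was 152-fold lower, while Erbb2 was 3.97-fold higher. The ligand Nrg1 was at 48.9, 78.99 and 59.9 CPM in Non-NE (66.1-fold higher) and Nrg2 was 31.98-fold lower.

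Receptors of cytokines, TNF ligands and the TGF-beta and BMP family were higher in 26 and lower in 8 of 58 tested genes, or lower in 5 without NE replicate 2 or Non-NE replicate 3. Tgfbr2, the type II TGF-beta receptor, was at 0.191, 0.328 and 0.106 CPM in NE and 495, 461 and 1127 CPM in Non-NE (3145-fold higher). Il1rl1, the receptor of interleukin 33, had 0 counts in NE and 83.8, 70.5 and 90.1 CPM in Non-NE, and the gene of its ligand, Il33, was likewise at 0 and 16.8, 35.7 and 171 CPM. The death receptor Fas was at 18.4, 97.8 and 32.5 CPM with 0 counts in NE. Osmr and Il6st, which pair in the oncostatin M receptor, were 1021-fold higher (95% counting interval 183 to 40357) and 4.85-fold higher. Among activin receptors Acvr1b was 3.10-fold lower, Acvr2a 2.72-fold lower and Acvr2b 15.95-fold lower, and Acvr1 was not called (58.4, 75.2 and 47.4 against 42.1, 97.6 and 109.9 CPM, edgeR adjusted p = 0.359), though it was called higher without Non-NE replicate 1 (0.0459). The activin subunit gene Inhba was 4013-fold higher (95% counting interval 719.9 to 1.586e+05) and the inhibin subunit gene Inha 12.3-fold lower.

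Of 71 tested genes on the list of secreted signals 57 were called, 32 higher and 25 lower, and 10 of the higher genes at 0 counts in NE. Cxcl12, a chemokine for CXCR4, was at 1783, 1210.3 and 921 CPM in Non-NE (18091-fold higher (95% counting interval 5008 to 149389)). Csf1, the macrophage growth factor, was at 5.44, 1.31 and 7.83 CPM in NE and 724, 762 and 1146 CPM in Non-NE (179.6-fold higher). Edn1, the vasoconstrictor endothelin, and Gdnf, a glial neurotrophic factor, were at 68.3, 225 and 97.99 CPM and 62.3, 74.3 and 47.3 CPM, Gdnf with 0 counts in NE. Sfrp2, a Wnt antagonist, was called, but its Non-NE libraries stood at 1375, 28.6 and 816 CPM, with the second far below the others. Low or at 0 in Non-NE were Igf2 (204, 927 and 392 CPM in NE against 2.83, 0 and 0 CPM), Wnt3 (18.3, 17.6 and 10.8 CPM against 0 counts) and Adm, which encodes adrenomedullin (8.97, 28.1 and 3.17 CPM against 0 counts). Fgf12 and Fgf14, fibroblast growth factor homologues that bind sodium channels inside the cell, were lower too. They are on the list by family and are not secreted signals. Fgf12 was 1657-fold lower (95% counting interval 297 to 65468) and Fgf14 446-fold lower (95% counting interval 123 to 3686). Vegfa, the main angiogenic factor, was 3.27-fold lower, while Vegfc was 31.9-fold higher.

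Guidance genes, which steer axons and migrating cells, changed in 27 of 43 tested members with 14 higher and 13 lower. Sema3a had 0 counts in NE and 391, 49.1 and 129 CPM in Non-NE, and its family receptor Nrp2 was 649-fold higher. Within the Slit family Slit2 was 1842-fold higher (95% counting interval 509 to 15215) and Slit1 46.7-fold lower. Within the Unc5 netrin receptors Unc5c was 204-fold higher and Unc5a, at 238, 363 and 345 CPM in NE, was 486-fold lower.

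Voltage-gated and ligand-gated channels, which carry the electrical activity of neuroendocrine cells, were mostly lower. Of 42 tested potassium channel genes and subunits, 37 were lower and 1 was higher (median log2 difference -6.94, or -5.60 with genes absent from a group at their bound). Kcnk1, a leak channel, was at 142, 154 and 69.4 CPM and the fast repolarizing channel Kcnc1 at 99.96, 145 and 78.8 CPM in NE, both with 0 counts in Non-NE. The single higher member was Kcnn4, a calcium-activated channel of non-excitable cells (6.45, 34.5 and 17.8 CPM in Non-NE, 599-fold higher (95% counting interval 107 to 23717)). Of 24 tested sodium and calcium channel genes 18 were lower and 1 was higher. Scn9a was at 292, 232 and 284 CPM in NE (3312-fold lower (95% counting interval 916 to 27350.3)), and Cacna1h, a low-voltage T-type channel, at 466, 475 and 277 CPM (698-fold lower). Cacna1a, a presynaptic calcium channel, was at 98.1 ± 18.8 and 67.8 ± 60.97 CPM and was not called (log2 difference -0.54, SE 0.61, adjusted p = 0.512), though it was without Non-NE replicate 1 (adjusted p = 0.0175).

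Among 21 tested ionotropic receptors 14 were lower and 4 higher, or 2 higher without NE replicate 1. The GABA-A subunit Gabrq was at 63.5, 67.7 and 26.9 CPM in NE and had 0 counts in Non-NE. Another subunit, Gabre, was 54.98-fold higher. The NMDA receptor subunits Grin1 and Grin2b were 1130.-fold lower (95% counting interval 202 to 44666) and 614-fold lower (95% counting interval 109.9 to 24296). The nicotinic subunit Chrnb2 was 229-fold lower, whereas the muscle-type subunit Chrnb1 was 10.9-fold higher.

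Channels of other kinds did not share one direction. TRP, mechanical and calcium store channels had 7 higher and 16 lower of 37. Piezo1, a stretch-activated channel, was at 30.7, 39.9 and 34.4 CPM in NE and 295, 287 and 237 CPM in Non-NE (7.80-fold higher). Trpv4, a channel opened by osmotic swelling, was 385-fold higher (95% counting interval 131 to 1872), and the polycystin Pkd2 3.93-fold higher. The ryanodine receptor Ryr2, which releases stored calcium, was 167-fold lower. Among chloride and water channels Ano1, a calcium-activated chloride channel, was at 60.9, 248 and 44.5 CPM in Non-NE (773-fold higher), and the volume-regulated subunit Lrrc8c was 4.60-fold higher. Aqp4, a water channel, was at 30.4, 29.2 and 26.4 CPM in NE with 0 counts in Non-NE. Of 5 tested connexins, which form gap junctions, 4 were higher and 1 lower: Gja1 was at 301, 475 and 573 CPM in Non-NE (1547-fold higher), Gjc1 was also higher, and the neuronal connexin Gjd2 was 726-fold lower (95% counting interval 129.9 to 28689.9).

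**Figure D2:**
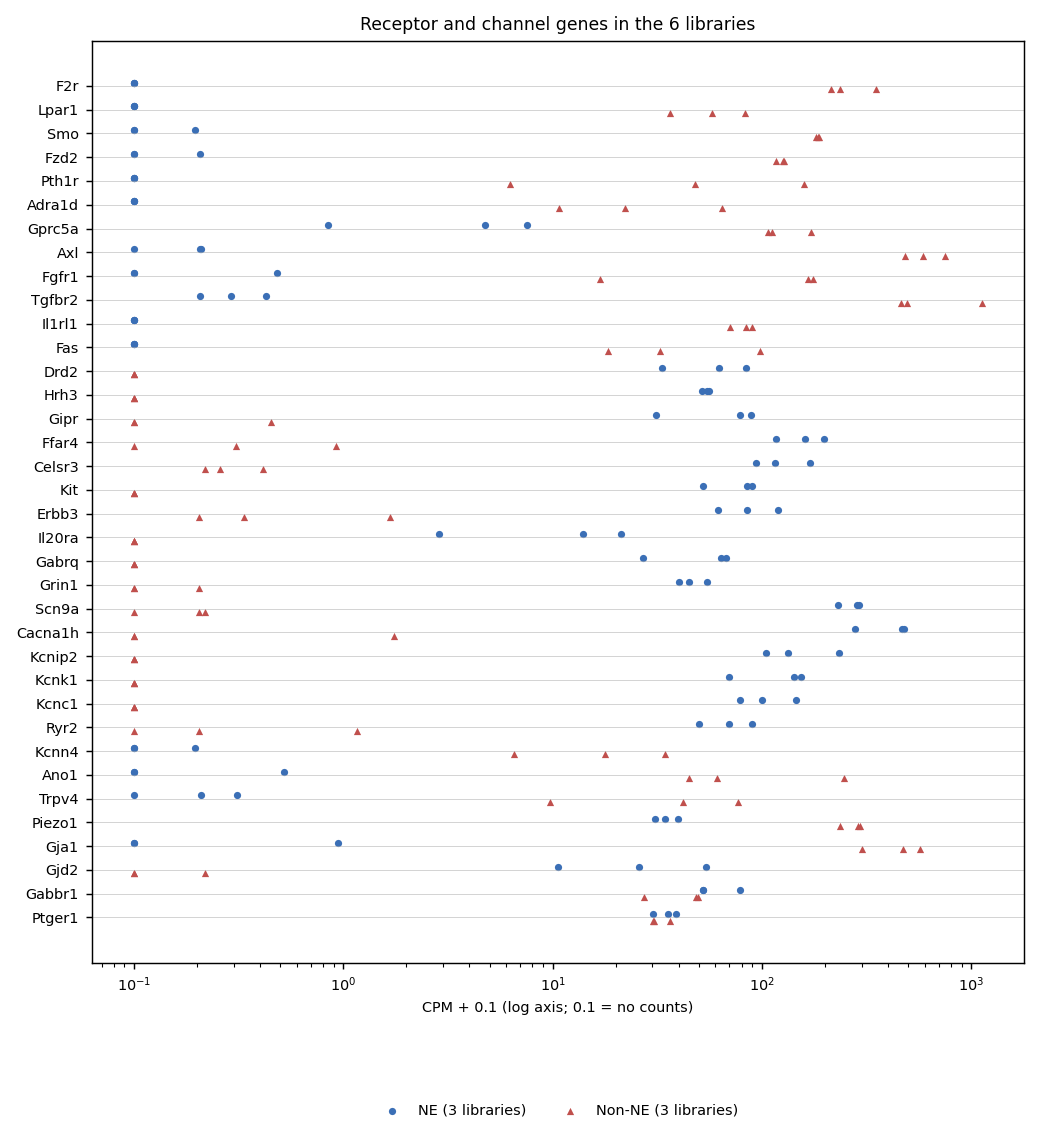
Level of 36 receptor and channel genes in each of the 3 NE libraries (blue circles) and 3 Non-NE libraries (red triangles), as CPM + 0.1 on a log axis, with 0.1 standing for no counts. Circles and triangles of a gene overlap for Ptger1 alone, and the last 2 genes, Gabbr1 and Ptger1, were not called.

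Most transcription factor families held genes called in each direction, as did the tested genes as a whole (20% higher and 22.8% lower, 42.8% called). Called shares were 62.3% for homeobox genes, 60.7% for basic helix-loop-helix and 64.3% for forkhead, GATA, T-box and Runx factors. They were 55.6% for Sox, Ets and Klf factors, 62% for signal-dependent and neuronal zinc finger factors and 57.1% for nuclear receptors. Of 69 tested homeobox genes outside the Hox clusters 18 were higher and 25 lower. Zeb1, a repressor of epithelial genes, was at 173, 252 and 237 CPM in Non-NE (2184-fold higher (95% counting interval 747 to 10595)). Irx1 (24.1, 26.7 and 58.8 CPM), Emx2 (21.1, 34.96 and 12.98 CPM) and Zfhx4 (38.7, 15.5 and 15.7 CPM) had 0 counts in NE. Prox1, a factor of neural and endocrine precursors, was at 246, 253 and 259 CPM in NE and 982-fold lower, and Cux2, a marker of upper cortical neurons, was 240.4-fold lower. Of 39 listed Hox genes 7 were tested, all from the HoxB cluster and all lower. Hoxb5 was at 199.5, 237 and 24.3 CPM in NE and 0.629, 0 and 0.519 CPM in Non-NE (400.0-fold lower), and Hoxb2 at 56.1, 56.5 and 44.98 CPM with 0 counts in Non-NE. Hoxb3, Hoxb4, Hoxb6, Hoxb7 and Hoxb8 followed, with Non-NE means of at most 0.531 CPM.

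Basic helix-loop-helix factors had 12 higher (7 without Non-NE replicate 3) and 22 lower of 56. Twist1, a mesenchymal factor, had 0 counts in NE and 39.8, 27.9 and 64.3 CPM in Non-NE, and Ebf1, first known from B cells, was at 18.7, 115 and 69.7 CPM (2099-fold higher (95% counting interval 376 to 82964)). Sim2, a factor of the bHLH-PAS type, was at 142, 141 and 166 CPM in NE (1829-fold lower (95% counting interval 506 to 15104)). Of forkhead, GATA, T-box and Runx factors 16 were higher and 11 lower of 42. Tbx18 was at 27.5, 13.9 and 76.2 CPM in Non-NE with 0 counts in NE, and Runx2, the osteoblast factor, at 121, 129.8 and 126 CPM (835-fold higher). Runx1t1, a corepressor, was at 169, 136 and 191 CPM in NE (742-fold lower), and the pioneer factor Foxa1 was 4.81-fold lower. Sox, Ets and Klf factors had 12 higher and 13 lower of 45; without NE replicate 1, NE replicate 3, Non-NE replicate 1 or Non-NE replicate 3 the higher ones numbered 6, 7, 7 and 7. Sox1, a neural progenitor factor, was at 258, 217 and 261 CPM (2009-fold lower (95% counting interval 687 to 9746)), the epithelial Ets factor Elf3 at 345, 312 and 201 CPM (1332-fold lower), and Elk3 was 212-fold higher.

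The list of signal-dependent and neuronal zinc finger factors had 34 higher and 23 lower of 92. Higher was Tcf7l2, the nuclear partner of beta-catenin (56.1, 28.4 and 30.3 CPM, 1056-fold higher (95% counting interval 189 to 41763)). Lower were Myt1 (113, 112 and 213 CPM in NE, 3554-fold lower (95% counting interval 638 to 140422)), St18 (268, 186 and 195 CPM, 2675-fold lower (95% counting interval 740.3 to 22097)) and Gfi1 (60.9, 47.1 and 37.6 CPM, 0 counts in Non-NE), all zinc finger repressors of neural or endocrine lineages. Nuclear receptors, which bind steroids, retinoids and other lipids, had 7 higher and 9 lower of 28. Vdr, the vitamin D receptor, was at 55.99, 57.1 and 216 CPM in Non-NE (3471-fold higher (95% counting interval 623 to 137149)), and the retinoic acid receptors Rarg and Rara were 16.1-fold higher and 5.14-fold higher. The Ror family members Rorb and Rora were 61.1-fold lower and 5.44-fold lower. The glucocorticoid receptor Nr3c1 was not called (142 ± 23.6 and 137 ± 16.3 CPM, log2 difference -0.06, SE 0.19, adjusted p = 0.837).

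Promoter windows of the all-or-none genes were read for short motifs of known factor families. RefSeq windows of GRCm38.p6 (mm10) spanned 250 bases before to 50 after a start site, the first listed per gene, and existed for 314 of 458 genes on in NE alone and for 177 of 258 on in Non-NE alone. The E-box CAGGTG (either strand, CACCTG on the other), which fits Zeb, Snai and Scrt repressors and several bHLH factors, was in 37.6% of the NE-only windows. It was in 14.1% of the Non-NE-only windows, 15.1% of windows of genes with at least 10 CPM in all 6 libraries, and 20.03% of all 27025 windows. The E-box CAGCTG, read by several bHLH factors, was in 18.5%, 12.99% and 16.1% of NE-only, Non-NE-only and all windows. The AP-1 site TGACTCA (either strand; read on the other strand as TGAGTCA) was in 6.21% of Non-NE-only, 3.18% of NE-only and 5.17% of all windows, and the TEAD core GGAATG (either strand; read on the other strand as CATTCC) in 18.6%, 15.3% and 14.6%. Windows of genes with at least 10 CPM in all 6 libraries held TGACTCA in 2.83% and GGAATG in 10.5%, and CAGCTG in 12.96%. Median GC content was 63.3% in NE-only and 60.7% in Non-NE-only windows, against 52.7% in all windows, most of which belong to genes not tested here. These shares are descriptions: a match is not a bound site, and no match says only that these letters are not in the window.

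The 4 NE-only genes with the highest level among those with CAGGTG before the start site are shown as 100-base stretches, 5′ to 3′ on the gene's strand, with the motif in capitals; Chga encodes the granule protein chromogranin A, Epcam an epithelial adhesion protein and Elavl3 a neuronal RNA-binding protein.
Epcam, chr17:87635745-87635844, plus strand: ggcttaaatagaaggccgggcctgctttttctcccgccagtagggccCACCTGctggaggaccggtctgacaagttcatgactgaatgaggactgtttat
Chga, chr12:102554703-102554802, plus strand: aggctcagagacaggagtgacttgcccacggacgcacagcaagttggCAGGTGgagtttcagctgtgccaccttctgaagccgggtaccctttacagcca
Elavl3, chr9:22052088-22052187, minus strand: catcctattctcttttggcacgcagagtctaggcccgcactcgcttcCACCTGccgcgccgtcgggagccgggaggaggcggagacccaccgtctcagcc
Elf3, chr1:135258560-135258659, minus strand: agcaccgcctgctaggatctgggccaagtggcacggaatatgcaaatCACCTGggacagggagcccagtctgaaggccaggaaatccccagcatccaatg

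The pair of Non-NE-only genes highest in level with TGACTCA before the start site, Gja1 and the calcium-binding S100a11, and the pair with GGAATG, the collagen Col3a1 and the smooth muscle actin Acta2, are shown the same way.
Gja1, chr10:56377200-56377299, plus strand: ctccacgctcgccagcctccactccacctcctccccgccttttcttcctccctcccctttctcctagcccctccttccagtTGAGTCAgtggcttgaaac
S100a11, chr3:93520313-93520412, plus strand: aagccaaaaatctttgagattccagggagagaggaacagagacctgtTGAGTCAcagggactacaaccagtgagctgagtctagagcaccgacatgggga
Col3a1, chr1:45311323-45311422, plus strand: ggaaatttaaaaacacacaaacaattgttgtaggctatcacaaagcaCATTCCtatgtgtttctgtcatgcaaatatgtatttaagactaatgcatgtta
Acta2, chr19:34255467-34255566, minus strand: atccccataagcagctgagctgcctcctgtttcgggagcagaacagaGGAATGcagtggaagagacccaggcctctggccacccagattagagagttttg

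Epcam was at 598, 841 and 479 CPM in NE and 0, 0.235 and 0.104 CPM in Non-NE, and Chga at 315, 519 and 318 and 0, 0.235 and 0.415 CPM. S100a11 had 0 counts in NE and 195, 317 and 317 CPM in Non-NE. Col3a1 was at 1417, 1024 and 6717 CPM in Non-NE and 13777-fold higher. Acta2 was called in the fit of all 6 libraries, but its Non-NE libraries stood at 14.3, 3059.8 and 647 CPM, and limma-voom did not call it (adjusted p = 0.0836). The letters of the RE1 element bound by the repressor Rest (CAGCACC and GGACAG with any 2 bases between them, either strand) were in 1 of the 314 NE-only windows, that of Hrh3, and in 9 of all 27025. Rest itself was at 0.859, 0 and 0.106 CPM in NE and 62.6, 71.8 and 53.7 CPM in Non-NE (179-fold higher, log2 difference 7.48, SE 0.86, adjusted p = 0.000829). The Hrh3 stretch carries the element on the reverse strand.
Hrh3, chr2:180104534-180104633, minus strand: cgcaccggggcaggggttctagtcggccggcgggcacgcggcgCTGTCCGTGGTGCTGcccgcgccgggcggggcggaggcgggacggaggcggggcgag

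Of 129 tested chromatin regulators 12 were higher and 33 lower and 84 were not called (34.9% called, against 42.8% of all tested genes). Scaling by library totals gave 7 higher and 43 lower, and leaving out Non-NE replicate 3 gave 7 higher. Among DNA methylation genes the methyltransferase Dnmt3a was at 314, 246 and 550.3 CPM in NE and 68.9, 142 and 72.8 CPM in Non-NE (3.92-fold lower), and of the demethylating oxygenases Tet1 was 400.2-fold lower and Tet2 3.06-fold lower. The maintenance methyltransferase Dnmt1 was not called (543 ± 91.9 and 399 ± 58.9 CPM, edgeR adjusted p = 0.13), except lower under library totals (0.0327), and its partner Uhrf1 was not called either (adjusted p = 0.289). Mbd3, a subunit of the NuRD complex, was 2.34-fold higher, but was not called without Non-NE replicate 3 (edgeR adjusted p = 0.0537). Jarid2, a cofactor of polycomb, fell from 284, 325 and 312 CPM to 22.8, 30.7 and 29.6 CPM (11.1-fold lower), and the histone demethylases Kdm6b and Kdm3a were 3.86-fold lower and 4.71-fold lower. Chd6 and Chd7, chromatin remodellers, were 6.03-fold lower and 4.40-fold lower. Actl6b, a subunit of the neuronal BAF complex, was at 16.4, 10.6 and 20.95 CPM in NE with 0 counts in Non-NE. Higher were Hmga2, an architectural protein of embryonic and tumour cells (27.1, 35.7 and 12.9 CPM, 0 counts in NE), and Hdac7 (16.9-fold higher). The remodeller Chd4 was at 695 ± 145 and 581 ± 49.6 CPM and was not called (log2 difference -0.26, SE 0.22, adjusted p = 0.375).

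RNA-binding proteins had 15 higher and 25 lower of 78 (51.3% called). Esrp1, which sets epithelial splicing, was at 423, 339 and 437 CPM in NE and 2259-fold lower. Lin28a, which blocks let-7 processing, was at 151, 72.9 and 116 CPM (2824-fold lower (95% counting interval 506 to 111566)), whereas Igf2bp1, an oncofetal mRNA-binding protein, had 0 counts in NE and 32.1, 54.5 and 14.01 CPM in Non-NE. Zfp36l1, which speeds mRNA decay, was 113-fold higher. In the large zinc finger families (Zfp, Zscan, Zkscan, Zbtb) calls were sparse, 23.3% against 42.8% of all tested genes. They were 20 higher and 66 lower of 369, with 13 and 110 after scaling by library totals. The higher ones numbered 11, 10 and 12 without NE replicate 1, Non-NE replicate 2 or Non-NE replicate 3, and the lower ones 37, 36 and 40 without NE replicate 1, NE replicate 2 or Non-NE replicate 3. Counting could split reads between near-identical members of these families.

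Of all tested genes 42.8% were called. The share was 26.5% in the TCA cycle and mitochondrial list and 53.1% in the serine, glycine and folate list. The TCA cycle and mitochondrial list had 3 higher (1 without NE replicate 2 or Non-NE replicate 2) and 10 lower of 49 tested genes, and 36 were not called. Cs, citrate synthase, was at 436 ± 172 and 627 ± 115 CPM (log2 difference 0.52, SE 0.34, adjusted p = 0.255). Exceptions were Nnt, which makes mitochondrial NADPH (20.2, 3.72 and 11.96 CPM in NE and 109, 76.5 and 62.5 CPM in Non-NE, 6.88-fold higher), the tissue-restricted oxoglutarate dehydrogenase Ogdhl (94.04-fold lower) and the pyruvate dehydrogenase kinase Pdk1 (7.62-fold lower). Serine, glycine and folate enzymes had 15 higher and 2 lower of 32, and 10 and 4 after scaling by library totals. Without NE replicate 1, NE replicate 2 or Non-NE replicate 1 the higher ones numbered 8, 9 and 9, and the lower ones 4 without Non-NE replicate 1. Psph, the last step of serine synthesis, was at 25.9, 37.7 and 23.6 CPM and 110.1, 55.8 and 73.1 CPM (2.74-fold higher), and the mitochondrial Mthfd1l and Gcsh were 2.28-fold higher and 4.96-fold higher. Psat1 and Shmt2 had higher means in Non-NE (212 ± 61.5 against 595 ± 422 CPM, and 174 ± 105 against 410.0 ± 182 CPM) but were not called (adjusted p = 0.0555 and 0.125 in edgeR). Psat1 was called without Non-NE replicate 2 (adjusted p = 0.0283) and in the DESeq2 test (0.0138), and Shmt2 with the replicate block (0.0463). Nucleotide synthesis had 12 higher and 8 lower of 53. The nucleotide salvage enzymes Upp1 and Cda were 8.34-fold lower and 18.1-fold higher.

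Fatty acid and sugar genes held calls in both directions. Cpt1a, the liver form of the carnitine transferase that admits fatty acids to mitochondria, was at 3.15, 7.99 and 11.7 CPM in NE and 84.5, 61.8 and 79.7 CPM in Non-NE (9.87-fold higher), and its brain form Cpt1c was 22.8-fold lower. The lipid droplet coats Plin2 and Plin3 were 26.2-fold higher and 129.6-fold higher, while the lipase Pnpla2 was 3.34-fold lower and the acyl-CoA synthetases Acsl1 and Acsl6 were 6.68-fold lower and 205-fold lower (95% counting interval 69.8 to 995). Decr1, an enzyme of unsaturated fatty acid oxidation, was at 0.0955, 0.109 and 0.106 CPM in NE and 13.4, 31.8 and 32.4 CPM in Non-NE (264-fold higher (95% counting interval 89.9 to 1283)). The ketone enzyme Bdh1 was 66.6-fold lower. Over the list 10 were higher and 10 lower of 58 (34.5% called, against 42.8% of all tested genes). Of 56 carbohydrate genes 12 were higher and 17 lower (51.8% called), or 10 lower without NE replicate 2. The glycogen phosphorylase Pygl was 742-fold lower (95% counting interval 254 to 3602). The aldose reductase relative Akr1b8 was 41.8-fold higher, and Pgd, of the pentose phosphate pathway, 4.82-fold higher.

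Amino acid enzymes had 12 higher and 18 lower of 60 (50% called, against 42.8% of all tested genes). The higher ones numbered 7 under library totals or without NE replicate 3. Lower were Ddc (448, 350.3 and 449 CPM in NE, 1107-fold lower) and Th (24.5, 138 and 5.82 CPM, 0 counts in Non-NE), which make dopamine, and Gad1, which makes GABA (14.4, 31.5 and 3.92 CPM, 0 counts). The creatine kinases Ckmt1 and Ckb, and the glutaminase Gls2, were also lower (643-fold lower, 34.4-fold lower and 7.10-fold lower). Higher were Oat, the ornithine aminotransferase (16.8-fold higher), the polyamine genes Odc1 (2.62-fold higher) and Sat1 (4.44-fold higher), and Ddah1, which breaks down a natural nitric oxide synthase inhibitor (52.8-fold higher). The retinaldehyde dehydrogenases Aldh1a1, Aldh1a2 and Aldh1a3, which make retinoic acid, were lower. Aldh1a2 was at 32.9, 139.9 and 72.1 CPM in NE with 0 counts in Non-NE, Aldh1a3 was 172-fold lower, and Aldh1a1 was 85.3-fold lower. Aldh1a7, a near copy of Aldh1a1 in sequence, was 2127-fold lower, and reads could be split between this pair.

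In metal handling 24 of 45 tested genes were called (53.3%, against 42.8% of all tested genes), 15 higher and 9 lower. The metalloreductases Steap2 (143, 113 and 122 CPM) and Steap1 (23.9, 15.8 and 36.6 CPM) had 0 counts in NE, and the ferroxidase Cp, ceruloplasmin, was 899-fold higher. The ferritin gene Fth1 was at 293, 276 and 169 CPM and 1384, 798 and 1048 CPM (4.38-fold higher), while the transferrin receptor Tfrc fell from 869, 742 and 1124 CPM to 146, 195 and 205 CPM (5.01-fold lower) and the iron exporter Slc40a1 was 11.1-fold lower. The metallothioneins Mt1 and Mt3 were lower, Mt1 at 190.2, 335 and 48.3 CPM against 3.77, 7.77 and 20.8 CPM and Mt3 at 24.2, 23.5 and 11.6 CPM against 0 counts. Membrane lipid genes had 21 higher and 15 lower of 72. Pla2g4a, the phospholipase that releases arachidonic acid, and Sphk1, which makes sphingosine 1-phosphate, had 0 counts in NE and 114, 94.4 and 146 CPM and 33.2, 33.2 and 37.6 CPM in Non-NE. St8sia1 and St8sia5, ganglioside sialyltransferases, were at 49.5, 82.98 and 75.3 CPM and 30.6, 26.6 and 8.57 CPM in NE with 0 counts in Non-NE. Glycan synthesis had 26 higher and 28 lower of 106, and St8sia3 and the fucosyltransferase Fut2 were 2502-fold lower (95% counting interval 449 to 98851) and 1495-fold lower (95% counting interval 414 to 12348). Solute carriers had 49 higher and 57 lower of 218. Called shares of the membrane lipid, glycan and solute carrier lists were 50%, 50.9% and 48.6%.

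**Figure D3:**
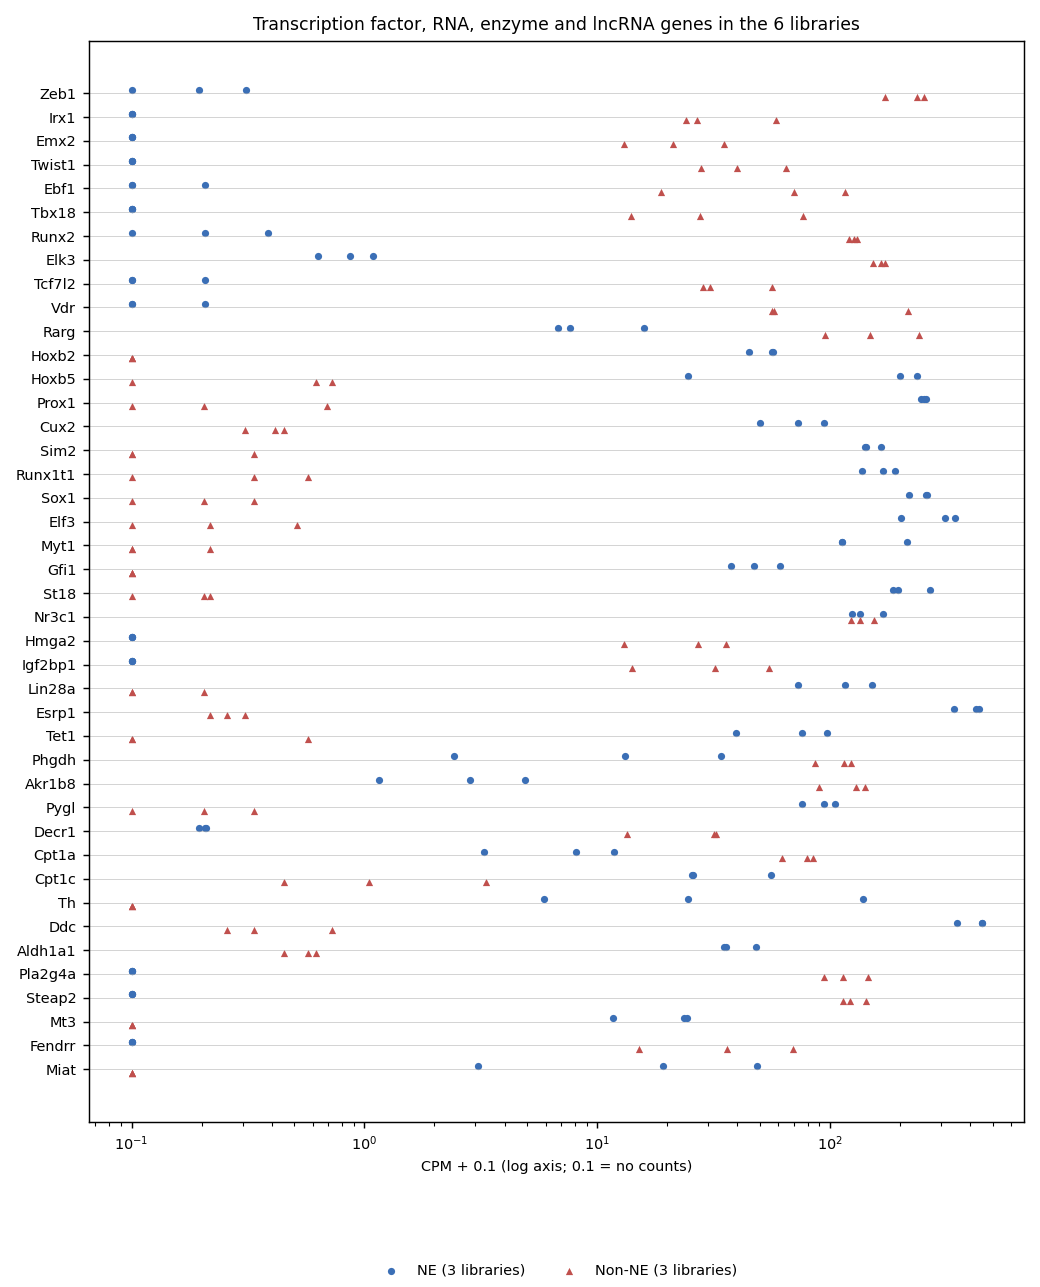
Level of 42 transcription factor, RNA, enzyme and lncRNA genes in each NE library (blue circles) and Non-NE library (red triangles), as CPM + 0.1 on a log axis. Genes higher in Non-NE (Zeb1 to Rarg) are followed by genes lower in Non-NE (Hoxb2 to St18); for Nr3c1, which was not called, the symbols overlap.

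Long noncoding RNAs (lncRNAs), by the GENCODE M21 annotation, were 3746 of the symbols, and 472 passed the count filter. Of these 42 were higher (79 without a count filter) and 152 lower (median log2 difference -0.87), against 2429 higher and 2622 lower of 11693 protein-coding genes (median 0.01). Fendrr, transcribed beside Foxf1, had 0 counts in NE and 69.5, 14.95 and 36.1 CPM in Non-NE (at least 363-fold higher, adjusted p = 0.00216). Mir22hg, the host of miR-22, was at 1.91, 1.86 and 1.16 CPM and 32.1, 30.7 and 30.8 CPM (18.8-fold higher). Miat, a neuronal transcript, was at 48.4, 19.05 and 2.96 CPM in NE with 0 counts in Non-NE, as was Gm2694 at 63.9, 90.4 and 76.8 CPM. Hoxb3os (49.9, 44.7 and 42.4 CPM in NE) and Igf2os (7.26, 47.8 and 18.8 CPM, 0 counts in Non-NE) lie antisense to Hoxb3 and Igf2, which were lower too; no source used here says whether the counting used strand, so reads of each pair cannot be told apart.

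Markers of other cells were read in the same libraries, and their part in the results was not tested. Of 12 endothelial markers 1 was tested, Vwf, at 384, 369.7 and 212 CPM in NE and 0, 0.353 and 0.104 CPM in Non-NE, while Cdh5, Cldn5 and Sox17 were at 0 in all libraries and Pecam1 below 1 CPM in each mean. Of 14 leukocyte markers 4 were tested, Cd14 (at 13.2, 17.2 and 15.6 CPM in Non-NE) and Cd68 higher and Lyz2 and Laptm5 lower. Cd68 was not called without any single library other than Non-NE replicate 1 (edgeR adjusted p = 0.062 to 0.118), nor Lyz2 without Non-NE replicate 3 (0.0569). Cd3e, Emr1 and Tyrobp were at 0 and Ptprc had means of 0.0353 ± 0.0611 CPM and 0.170 ± 0.177 CPM. Of 16 fibroblast markers 6 were tested, all higher (Pdgfra, Pdgfrb, Dcn, Col1a1, Col1a2 and Col3a1), and the summed level of the list was 3.53 to 19.3 CPM in NE and 1.009e+04 to 22164 CPM in Non-NE. Dcn was not called without any single library other than Non-NE replicate 2 (edgeR adjusted p = 0.0504 to 0.0713). Tcf21 was at 0 in all libraries, Thy1 at 0 in Non-NE, and Lum, Dpt, Fap, Mfap4 and Mfap5 had Non-NE means under 2 CPM. Of 12 bone and cartilage markers 7 were tested, 5 higher, Runx2 among them, and 0 lower (71.4% called, against 42.8% of all tested genes). Spp1 was at 248, 417 and 331 CPM and Mgp at 31.3, 2.83 and 72.4 CPM in Non-NE. Sp7, Bglap, Ibsp and Acan were below 0.2 CPM in each mean. Of 13 smooth muscle and pericyte markers 5 were tested, 3 higher and 2 lower. Of 10 basal and squamous markers 6 were tested, 3 higher and 0 lower. In these lists 3, 1 and 2 of the higher genes kept their call in every alternative. The mesothelial marker Msln was at 249, 502 and 674 CPM in Non-NE, with Wt1 and Calb2 at 0. Of 9 tested genes of ciliated cells 6 were lower, among them Myb and Ccdc40.

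The 3 libraries of a side resembled each other far more than those of the other side. Across the 12966 tested genes, Pearson's r of log2(CPM + 1) was 0.928 to 0.957 between NE libraries, 0.937 to 0.958 between Non-NE libraries and 0.513 to 0.566 between the sides; genes are not independent replicates, and these values are descriptions. Genes 4-fold apart on that scale numbered 229 to 431 for a pair of NE libraries, 329 to 530 for a pair of Non-NE libraries and 2811 to 3057 for a pair across sides. The biological coefficient of variation, the relative spread beyond counting noise, was 0.375 within NE and 0.422 within Non-NE. Without NE replicate 3 the NE value was 0.316, and without Non-NE replicate 1 the Non-NE value was 0.355.

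Each library nonetheless had genes of its own. With at least 20 CPM in a library and at least 16 times the higher of the other 2 of its side, 8, 20 and 15 genes marked the NE libraries in order and 18, 16 and 19 the Non-NE libraries. Among the genes that marked NE replicate 2 were Stag3, a meiotic cohesin subunit, at 1.53, 344 and 2.54 CPM in the NE libraries, the piRNA helicase Tdrd9 at 1.43, 222 and 0.635 CPM and the meiotic cohesin Rad21l at 0.382, 47.3 and 0.529 CPM. It also carried Meox2 (1.05, 124 and 0 CPM) and Wfdc2 (2.00, 104 and 0.529 CPM). The same library was short of the signalling kinase Jak1 (68.2, 1.64 and 53.3 CPM) and of Pvt1, a noncoding RNA gene beside Myc (306, 8.43 and 409 CPM), and its Myc level was likewise low (656, 29.6 and 438 CPM). In the Non-NE libraries Myc was at 132, 174 and 147 CPM, and over all 6 it was not called (log2 difference -1.31, SE 0.89, adjusted p = 0.276). Without NE replicate 2, Myc was called lower (log2 difference -1.83, adjusted p = 0.00461) and Jak1 higher (1.90, adjusted p = 0.00303) in edgeR. With all 6 libraries Jak1 was not called in edgeR (adjusted p = 0.0929) but was called higher in the DESeq2 test and limma-voom (0.0175 and 0.035).

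NE replicate 3 carried a further meiotic cohesin, Rec8 (0.286, 0.109 and 131 CPM), and held Y-linked transcripts, Eif2s3y at 0, 0 and 94.1 CPM and Ddx3y at 0, 0 and 61.3 CPM in the NE libraries. In the Non-NE libraries Eif2s3y was at 0 and Ddx3y at 0, 0 and 0.104 CPM. Xist, which silences an X chromosome, was at 1911, 1814 and 0.635 CPM in NE and 933, 919.9 and 369 CPM in Non-NE, so NE replicate 3 was the low one. It also lacked the neurofilament Nefl (122, 77.7 and 0 CPM) and the receptor phosphatase Ptprt (63.8, 197 and 3.49 CPM). NE replicate 1 stood out by Nefm, another neurofilament (71.5, 4.16 and 0 CPM), and by Col4a1 and Vldlr (40.96, 2.19 and 1.27 and 52.99, 0.219 and 2.33 CPM), genes that the Non-NE libraries held at 162, 288 and 504.4 and 151, 79.9 and 97.5 CPM. With all 6 libraries Vldlr was not called in edgeR (adjusted p = 0.191) but was in limma-voom (0.0211), and edgeR called it higher without this library (0.00589).

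The Non-NE libraries differed in matrix and contractile genes. Non-NE replicate 1 had the collagen chaperone Serpinh1 at 1582, 19.5 and 9.03 CPM in order of the Non-NE libraries, Col5a2 at 867, 34.3 and 33.01 CPM, and the growth factor Fgf7 at 255, 6.71 and 12.1 CPM, and it had little Acta2. Non-NE replicate 2 had Igfbp7 (0, 522 and 27.9 CPM) and, like the NE libraries, the epithelial keratin Krt7 (545, 643 and 276 CPM in NE against 0, 407 and 3.11 CPM) and the endodermal factor Foxa2 (225, 211 and 170.2 and 0.786, 56.3 and 0.830 CPM), but little of the glutamate transporter Slc1a3 (190.1, 2.59 and 145 CPM) or of the collagen receptor Ddr2 (76.4, 2.94 and 318 CPM). In edgeR with all 6 libraries Krt7 and Foxa2 were not called, and without this library they were called lower (adjusted p = 0.00452 and 0.000165). With all 6 libraries limma-voom called both lower (0.0397 and 0.00626), and the replicate block called Foxa2 (0.0462). Non-NE replicate 3 had Col6a2 (166, 93.1 and 2777 CPM) and the matrix proteins Fndc1 (22.02, 4.12 and 687 CPM) and Prelp (9.28, 1.53 and 220.1 CPM). The heat map of library genes shows these blocks beside the levels in the other side.

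**Figure D4:**
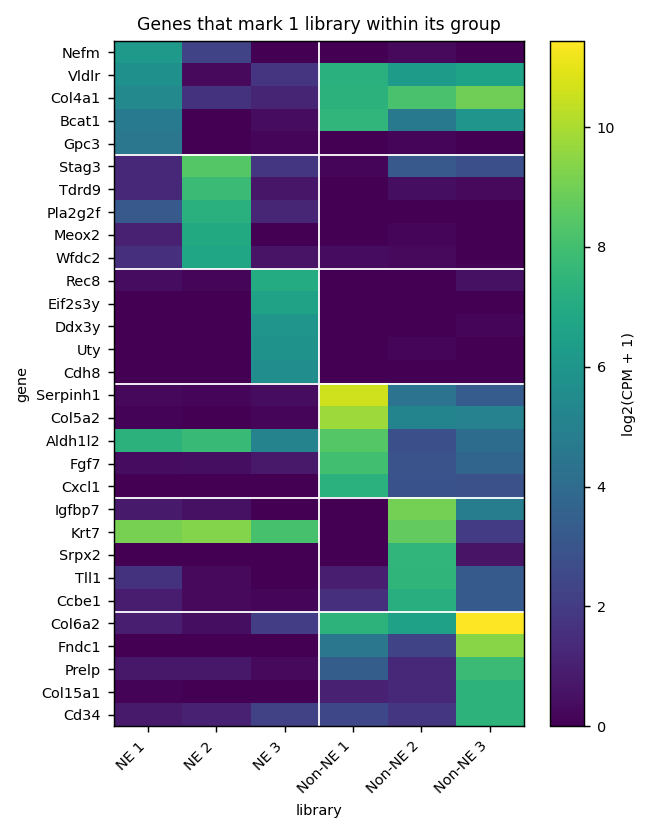
Level, as log2(CPM + 1), of the 5 genes with the highest CPM among those that mark each library within its side (rows, in blocks of 5 for NE 1 to 3 and Non-NE 1 to 3) in the 6 libraries (columns). Most blocks are bright in a single library of their side, and Krt7 is bright in Non-NE 2 and in all 3 NE libraries.

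Differences also followed chromosomes. The median log2 difference between the sides was -0.57 for the 919 tested genes of chromosome 7 and 0.54 for the 471 genes of chromosome 15. On chromosome 7, 85 genes (9.25%) were higher and 326 (35.5%) lower. On chromosome 15, 143 (30.4%) were higher and 65 (13.8%) lower. Over all tested genes the shares were 20% higher and 22.8% lower. Medians on chromosomes 12 and 10 were -0.32 and 0.32. Under library totals the medians of chromosomes 7 and 15 were -0.82 and 0.28, and all medians moved by about the same amount. Within a side, each library was set against the mean of the other 2 over genes with at least 5 CPM in all 3. The median deviation was under 0.15 on the log2 scale in 90 of 120 pairs of chromosome and library and at least 0.4 in 9. NE replicate 3 was low on chromosome 10 (-0.64) and chromosome 15 (-0.57) and high on chromosome 9 (0.51), where 87.2% of 537 genes lay above the mean of the others. NE replicate 1 was low on chromosome 9 (-0.58) and NE replicate 2 high on chromosome 15 (0.45). Non-NE replicate 1 was low on chromosomes 9, 12 and 16 (-0.46, -0.49 and -0.42), and Non-NE replicate 3 on chromosome 14 (-0.53). A deviation in 1 library enters that of the others with the opposite sign, since each is set against the other 2. DNA was not measured, and what goes with these deviations was not tested.

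**Figure D5:**
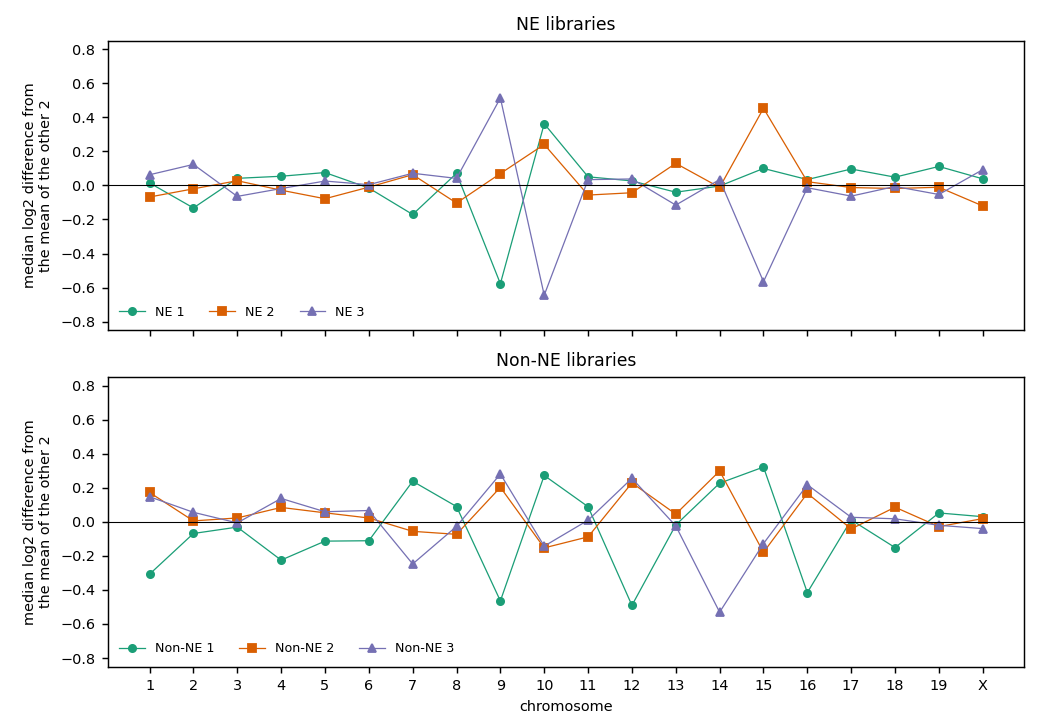
Median over genes of each chromosome of the log2 difference of a library from the mean of the other 2 of its side, for NE (top) and Non-NE (bottom). Most points lie near 0, and NE 3 is at -0.64 on chromosome 10 and 0.51 on chromosome 9.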

How the data were processed

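Cultured mouse small cell lung cancer cells were measured by RNA sequencing of cDNA. The submitters' processing notes name the genome build mm10, the aligner STAR 2.4.2 and the read counter featureCounts. The table deposited by the authors holds raw counts for 32926 symbols; 30152 occurred in GENCODE M21, used for coordinates and gene types, and 25 had become dates. Strandedness and the counting annotation were not given in the sources used here. Counts of the 6 libraries were scaled by TMM, filtered with filterByExpr and fitted with the robust quasi-likelihood test of edgeR 4.0.16 in R 4.3.3, and p-values were adjusted over all tested genes. No covariate was used. SE was taken from the F statistic. A fold against a group at 0 counts uses 3 counts over that group, and 1 to 3 counts give a ratio with an exact 95% interval; both cover counting error only.

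Named genes were, per list, up to 4 called genes each way by log2 difference with at least 10 CPM and no overlap, the 12 each way with the largest CPM difference, up to 8 lncRNAs each way, up to 5 genes per library, and any list member. Members, lists and motifs were chosen with earlier results of these data known, and some members named were chosen after their values were seen, with preference for calls that held in every alternative. Alternatives were DESeq2 size factors, the DESeq2 1.42.0 test, library totals, 2 other count filters, limma-voom (limma 3.58.1), a replicate block and leaving out each library. The pipeline was tested on simulated counts. Some genes are not reported here.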

Additional observations from a re-analysis of the deposited data

How the results depend on the processing

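The number of called genes stayed within 1.5 times its value of 5554 under every alternative run: 5541 with DESeq2 size factors, 5685 with library totals, 5605 with at least 1 CPM in 3 libraries, 5677 without a count filter, 6217 in the DESeq2 test, 5834 in limma-voom and 4888 with the replicate block. Leaving out each library in turn gave 4483 to 5570 calls, 2064 to 2621 higher and 2414 to 2949 lower, and a biological coefficient of variation of 0.316 to 0.419 in NE and 0.355 to 0.444 in Non-NE. Over all alternatives together, 3725 genes (28.7%) were called the same way in each one that gave them an adjusted p. Replicate numbers are given in the labels of both groups, but name no shared culture. Deviations of same-numbered libraries had correlations of 0.0554, -0.0203 and 0.0470, and those of other-numbered libraries -0.0629 to 0.0218. With 3 libraries a side these values cannot show whether a number marks a shared source. The replicate block of 4888 calls is therefore not read as a paired result. Library totals moved the calls most toward lower (1929 higher, 3756 lower).

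Of 273 tested genes named in the text 254 were called, and 239 of these were called in every alternative that gave an adjusted p; the others were Acta2, Cd68, Col4a1, Dcn, Ddr2, Fgf7, Fndc1, Grm4, Lyz2, Mbd3, Prelp, Ptprt, Pvt1, Serpinh1 and Slc1a3. Counts of called members per list moved by over 1.5 times in 119 of 1716 cases. No call of a named gene turned direction. Of the genes that were not called 4 changed sign, Trp53 (0.0075 over all 6 libraries), Nr3c1 (-0.06), Stag3 (-4.56) and Xist (-0.75): Trp53 was at -0.0059 with DESeq2 size factors, -0.0085 in the DESeq2 test, -0.25 with library totals and -0.017 in limma-voom. Leaving out each library in turn put Trp53 at -0.12 (without NE replicate 2) to 0.18, Nr3c1 at -0.14 to 0.11 (without NE replicate 2) and Stag3 at -5.14 to 1.25 (without NE replicate 2). Xist was at 2.34 in limma-voom and 0.55 with the replicate block, all as log2 differences. The causes were not tested. Levels at or under 0.103 CPM in NE or 0.123 CPM in Non-NE rest on at most 3 counts over the group, which limits the precision of their folds.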

Other observations

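Several gene pairs of the families counted above, chosen after their values were seen, divided between the sides. Within kinesins and tubulins the axonal motor Kif1a was at 389.5, 286 and 503 CPM in NE and 3215-fold lower (95% counting interval 1099.8 to 15592) in Non-NE, while its relative Kif1c was 10.8-fold higher. Tubb4a, a neuronal tubulin, was 209-fold lower and Tubb6 11.01-fold higher. Among Rab GTPases, which direct vesicle traffic, Rab3c and the epithelial Rab25 were 916-fold lower and 187-fold lower, and Rab32 was 159-fold higher. Among drug transporters Abcb1b was 1044-fold higher (95% counting interval 187 to 41294) and Abcg2 at 0.764, 0 and 0.106 CPM in NE and 27.7, 105 and 88.8 CPM in Non-NE (232-fold higher). Among protocadherins Pcdh19 had 0 counts in NE and 176, 86.4 and 169 CPM in Non-NE, and Pcdh10 was 528-fold lower (95% counting interval 146 to 4368). Among receptor phosphatases Ptprz1 and Ptprn2 were 789.7-fold lower and 635-fold lower, and Ptprd was 1477-fold higher (95% counting interval 265 to 58403).

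Calls of the clustered protocadherins (11 lower and 1 higher of 22) are uncertain, since genes of a cluster share exons or near-identical sequence.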
